A study of Homo sapiens with 2 samples.

Results

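The cells described here are PC9 cells that carried an sgRNA against JUN, set against cells of the same culture that carried a non-targeting sgRNA. Barcodes entered with 1000 or more gene UMIs (unique molecular identifiers, each standing for 1 captured RNA molecule), 500 or more genes and no more than 20% of UMIs from mitochondrial genes. The leading sgRNA of a cell named its group if it reached 5 UMIs and made up 80% or more of all sgRNA UMIs in that cell. By that rule 836 cells carried a JUN sgRNA, which is 15.0% of the 5556 assigned cells. JUN sgRNAs 1 to 6 had 156, 230, 81, 177, 56 and 136 cells. Non-targeting sgRNAs 1 to 4 had 300, 164, 159 and 77 cells, 700 in all, and sgRNAs against 5 other genes (ATF4, CTCF, CTNNB1, MYC and PGAM1) had 4020 cells.

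PC9 is a human lung adenocarcinoma line whose growth is driven by an activating mutation of the receptor EGFR. Per the labels, all groups shared the Cas9-expressing line, lentiviral delivery by spinfection at about 40% infection with polybrene at 8 ug/ml, and puromycin at 1 ug/ml between day 2 and day 6. The labels name both knockout and dCas9, the form of Cas9 that does not cut, so whether the JUN gene was cut or repressed is uncertain. They also give a day 7 harvest, 10 further days of passage and a day 8 experiment, so the day of the sequenced cells is uncertain. The labels describe vectors with several sgRNAs each, whereas 1.93% of the 1245 cells with 5 or more UMIs of a JUN sgRNA had 2 or more such sgRNAs. All sgRNAs came from 1 pool and 1 culture, and the sgRNA is the unit of every test. A p-value here therefore reflects nothing but the variation from sgRNA to sgRNA, possibly technical, and the 6 JUN sgRNAs share 1 target gene.

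JUN encodes c-Jun, a basic leucine zipper protein that binds DNA as a dimer with itself or with other members of the AP-1 family. Its partners are the other Jun proteins (JUNB, JUND), the Fos proteins (FOS, FOSB, FOSL1, FOSL2) and relatives among the ATF, BATF, JDP and MAF proteins. The kinases of the JNK cascade phosphorylate c-Jun and raise its activity, and growth factor signals through EGFR and the MAP kinases raise the transcription of JUN and FOS. AP-1 binds the sequence TGANTCA, and dimers that hold ATF or CREB family proteins favour a form longer by 1 base. In epithelial cells AP-1 is known for the control of proliferation, of cytokines such as IL11 and CXCL8, of matrix proteases and of genes of the cornified envelope.

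The promoter windows of the targeted gene and of IL11, a cytokine gene to which several comparisons below lead, are shown because both hold such letters. They cover the 250 bases before the annotated start in RefSeq (GRCh38.p14), 5′ to 3′ on the minus strand, at chr1:58784048-58784297 for JUN and chr19:55370464-55370713 for IL11. Capitals mark matches to TGANTCA or TGACNTCA, which were searched on both strands and do not overlap each other here.
JUN: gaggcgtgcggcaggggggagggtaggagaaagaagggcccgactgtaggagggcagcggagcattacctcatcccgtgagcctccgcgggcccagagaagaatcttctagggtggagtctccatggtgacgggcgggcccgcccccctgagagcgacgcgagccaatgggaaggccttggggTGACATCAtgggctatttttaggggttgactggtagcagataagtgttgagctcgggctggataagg
IL11: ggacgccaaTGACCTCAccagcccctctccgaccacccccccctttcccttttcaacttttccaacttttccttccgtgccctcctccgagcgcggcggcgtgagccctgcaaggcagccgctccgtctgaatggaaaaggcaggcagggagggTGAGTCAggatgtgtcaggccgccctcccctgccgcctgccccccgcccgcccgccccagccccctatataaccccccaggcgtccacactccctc
The JUN window held TGACATCA with its first base at position -67 from the start. The IL11 window held TGAGTCA at -96 and TGACCTCA at -241. Among all 35116 promoter windows of this length, 6.57% held TGANTCA and 6.87% held TGACNTCA. These matches describe letters and are not evidence of binding.

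Depth was close in both groups. JUN cells had 1186 to 33201 gene UMIs per cell (median 11824), against 1092 to 31853 (median 12110.5) in non-targeting cells. Summed per sgRNA, JUN cells gave 750327 to 2937529 UMIs and non-targeting cells 1038200 to 3869915. Across 6 measures per sgRNA (median UMIs, genes, mitochondrial share, sgRNA UMIs, share of G1-scored cells and share of cells with a JUN UMI after thinning), no difference passed an exact two-sided permutation test (smallest p 0.314, adjusted p 0.771 for all 6; the smallest p that 6 against 4 sgRNAs allow is 0.0095). The cells had the character of an epithelial line: KRT7, a keratin of simple epithelia, stood at 2422 CPM in JUN cells and 2607 CPM in non-targeting cells. CPM is the gene's count relative to all gene UMIs of the sgRNA, scaled between sgRNAs by the TMM method. Of 8 fibroblast markers 5 had no count, and all 8 together gave 25 UMIs in JUN cells and 17 in non-targeting cells. Of the markers of leukocytes and of endothelium, 5 and 3 had no count and 1 each (CD68 and CDH5) was abundant enough to be tested. The leukocyte markers together gave 219 UMIs in JUN cells and 163 in non-targeting cells, and the endothelial markers 23 and 13.

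JUN sgRNA 5 stood apart from the other JUN sgRNAs and from the controls most strongly in the first 90 Mb of chromosome 3. Its cells had a median of 26.3 UMIs per 1000 nuclear-gene UMIs from the first 90 Mb of chromosome 3, against 30.6 to 33.4 in the other 33 sgRNAs with at least 20 cells. Among its 56 cells, 32 (57.1%) lay below the 5th percentile of the control cells. Beyond 90 Mb its median was 26.3, beside 24.9 to 26.1 for the other JUN sgRNAs and 25.9 to 26.3 for the controls. Of the 137 genes of the first 90 Mb measured for it, 116 had a log2 fold change below 0 against the controls, with a median of -0.29, and in the other 5 JUN sgRNAs the median lay between -0.03 and 0.02. Chromosome 2 beyond 100 Mb, chosen after seeing the data and summed in the same way over 841 genes, gave sgRNA 5 a median of 24.96, beside 26.3 to 27.2 for the other JUN sgRNAs and 26.1 to 27.3 for the controls. There 14.3% of its cells lay below the control percentile, as did 14.3% of the cells of non-targeting sgRNA 4. JUN itself lies on chromosome 1. The chromosome 3 region was chosen with earlier results of these data known. In bins of 10 Mb, 204 per sgRNA, the lowest median log2 fold change was -0.50 for sgRNA 5, on chromosome 3. It was -0.32 for sgRNA 3 (chromosome 7, 110 to 120 Mb, 9 of 11 genes below 0). For the other JUN sgRNAs it lay between -0.18 and -0.12. Calls that sgRNA 5 decides are given with and without it. Among named genes that were not called against the controls, leaving it out moved MT2A from a log2 fold change of 0.04 to -0.04, RPL32 from -0.10 to -0.02 and GADD45B from 0.30 to 0.12.

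**Figure D1:**
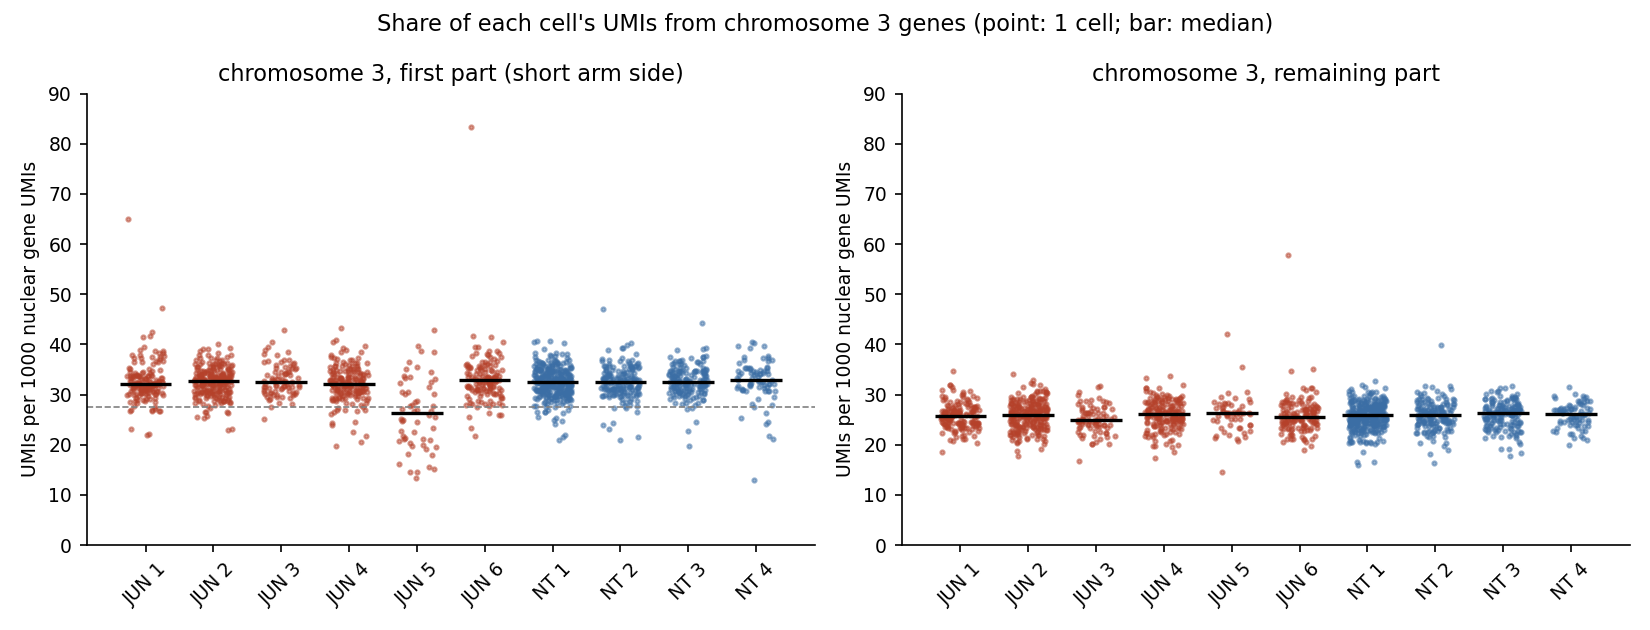
Each point is 1 cell, with UMIs from chromosome 3 genes per 1000 nuclear-gene UMIs on the y axis and JUN sgRNAs 1 to 6 left of non-targeting sgRNAs 1 to 4 on the x axis, for the first 90 Mb and for the remaining chromosome. The cells of JUN sgRNA 5 centre on 26.3 in the first panel, below the dashed line of the control cells' 5th percentile (27.5), and lie among the others in the second.

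The first question was whether the JUN transcript itself was lower in JUN cells. JUN (ENSG00000177606, chromosome 1, 58780791 to 58784047, GRCh38) stood at 71.6, 67.0, 54.9, 81.1, 53.03 and 61.7 CPM in JUN sgRNAs 1 to 6, and at 70.1, 79.1, 74.9 and 76.9 CPM in non-targeting sgRNAs 1 to 4. The groups overlapped, since JUN sgRNA 4 was above every control and sgRNA 1 above the lowest control. The mean was 64.9 ± 10.6 CPM in JUN cells (SD, n = 6) and 75.2 ± 3.85 CPM in non-targeting cells (SD, n = 4). The log2 fold change was -0.14 ± 0.10 (SE; adjusted p = 1.0, edgeR's quasi-likelihood test with Benjamini-Hochberg adjustment), and the transcript was not called lower. A sum over cells cannot tell fewer JUN-expressing cells from less JUN RNA per cell. Per cell, 53.1% of JUN cells and 50.3% of non-targeting cells had no JUN UMI, and 8.73% and 11% had 3 or more. After thinning each cell to 5000 UMIs, a JUN UMI was found in 23.8 ± 4.86% of cells of the JUN sgRNAs (SD, n = 6) and 24.6 ± 1.95% of cells of the non-targeting sgRNAs (SD, n = 4; exact permutation p = 0.771, two-sided).

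The 6 sgRNAs differed among themselves in the JUN transcript. Fitted singly against the 4 controls, with the lone sgRNA assumed to vary like the others, sgRNAs 3 and 5 had the lowest values, with log2 fold changes of -0.44 and -0.49, and neither passed. sgRNA 6 had -0.27, sgRNA 2 -0.15, sgRNA 1 -0.05 and sgRNA 4 0.13. The 2 lowest sgRNAs were also those with the fewest cells and JUN UMIs, 51 UMIs for sgRNA 3 and 40 for sgRNA 5, where the largest JUN sgRNA gave 196. Without sgRNA 5 the log2 fold change of JUN in the whole group was -0.11. JUN also stood at 82.0 CPM in ATF4 cells, 69.6 in CTCF cells, 69.1 in CTNNB1 cells, 85.1 in MYC cells and 65.2 in PGAM1 cells, so that the mean in JUN cells was level with that of PGAM1 cells and below the others. A knockout can leave the transcript in place, and the amount of c-Jun protein was not measured.

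No other AP-1 subunit passed the test against the controls. Of 19 subunits 15 were abundant enough to be tested, and their median log2 fold change was -0.02, beside 0.00 over all 11570 genes tested. Among the Jun proteins, JUNB, which competes with c-Jun for Fos partners, stood between 109 and 127 CPM (median 113) over the JUN sgRNAs and at 117, 114, 120 and 118 CPM in the controls. JUND, the more constantly expressed Jun protein, ranged from 114 to 152 CPM (median 121) in JUN sgRNAs, against 127, 115, 109.6 and 148 CPM in the controls. Both sets overlapped, and neither gene passed (log2 fold changes -0.02 and 0.05).

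The Fos proteins cannot form dimers with each other and depend on a Jun partner to bind DNA. FOS stood between 102 and 128 CPM (median 112) in JUN sgRNAs, against 115, 114, 70.4 and 97.6 CPM in the controls, with a log2 fold change of 0.15 ± 0.10 (SE, adjusted p = 1.0). FOSB ranged from 26.8 to 39.7 CPM (median 35.8) in JUN sgRNAs, against 28.5, 30.7, 36.2 and 32.5 CPM in the controls (log2 fold change 0.18). The FOSB controls all lay inside the range of the JUN sgRNAs, and the FOS controls inside or below it. FOSL1, which encodes Fra-1, stood between 18.7 and 34.5 CPM (median 24.1) in JUN sgRNAs and at 26.4, 24.7, 24.1 and 34.5 CPM in the controls. The low FOSL2 had a mean of 9.46 CPM in JUN cells and 9.99 CPM in non-targeting cells.

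Among the smaller partners, BATF, which lacks a transactivation domain and pairs with Jun proteins, came closest to a difference. It stood between 37.1 and 54.4 CPM (median 46.5) in JUN sgRNAs, against 57.5, 52.4, 51.3 and 50.3 CPM in the controls. The groups overlapped, and the log2 fold change was -0.20 ± 0.11 (SE, adjusted p = 1.0). JDP2, a repressor that binds AP-1 sites, ranged from 72.2 to 79.5 CPM in JUN sgRNAs, against 70.3, 73.2, 64.4 and 76.9 CPM in the controls. The ATF members ATF2, ATF3 and ATF7 had log2 fold changes of -0.04, 0.07 and 0.02, and MAFF, MAFG and MAFK -0.18, 0.01 and -0.22. For 13 of the 15 subunits the 95% interval of the fold change lay within 1.5-fold either way.

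**Figure D2:**
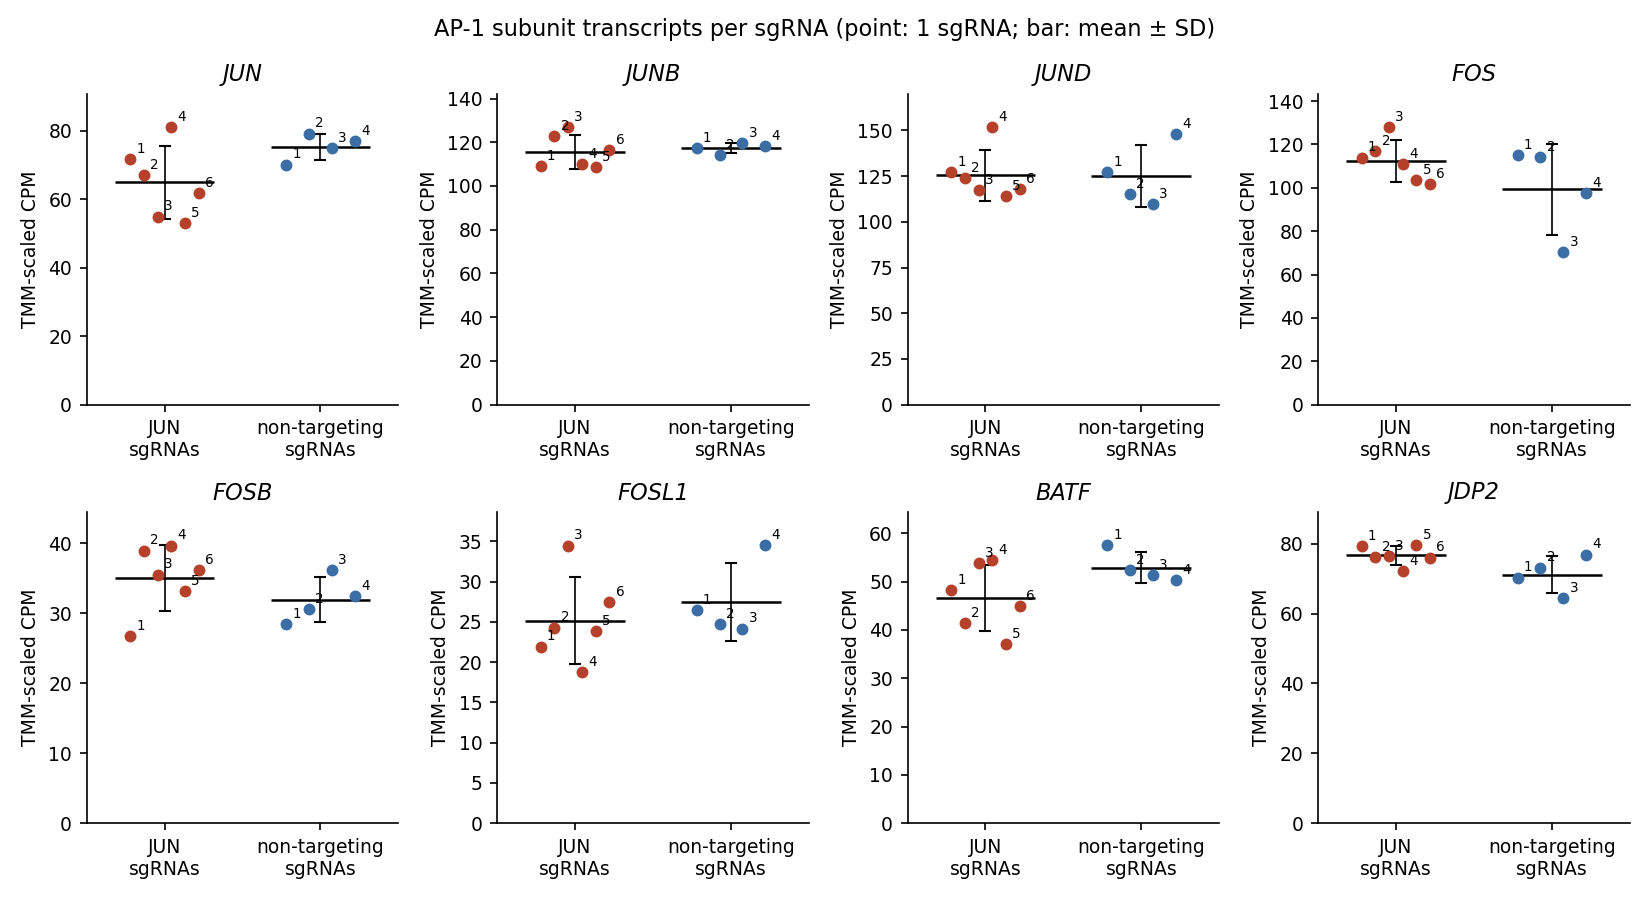
Levels of JUN and 7 other AP-1 subunits in CPM (y axis) per sgRNA, with the JUN sgRNAs left of the non-targeting sgRNAs; points carry the sgRNA number and bars show mean ± SD. JUN sgRNAs 3 and 5 are the lowest for JUN at 54.9 and 53.03 CPM, and in every panel the groups overlap.

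Across all genes, 1 of 11570 (0.00864%) passed an adjusted p of 0.05 between JUN and non-targeting cells, and it was higher in JUN cells. No gene was called lower. At an unadjusted p under 0.05 the test marked 536 genes (4.63%), near the share that the threshold itself sets, and DESeq2 marked 336. The level of the 6 JUN sgRNAs did not overlap that of the 4 controls for 105 genes (0.908%), 49 higher (0.424%) and 56 lower (0.484%). A random split of 10 values into 6 and 4 separates them fully with a probability of 0.0095, so this share is near that of chance. The precision was enough for moderate changes in most genes. Among 7749 genes with a control mean of at least 10 CPM, the 95% interval of the fold change lay within 1.5-fold either way for 7052 (91.0%).

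The gene called was PI3, which encodes elafin, a secreted inhibitor of neutrophil elastase made by epithelia (chromosome 20, 45174902 to 45176544). PI3 stood at 81.3, 104, 136, 124, 125 and 54.8 CPM in JUN sgRNAs 1 to 6, against 52.3, 40.5, 50.8 and 74.9 CPM in non-targeting sgRNAs 1 to 4. JUN sgRNAs 1 to 5 were above every control and sgRNA 6 was above 3 of the 4. The mean was 104 ± 30.8 CPM in JUN cells (SD, n = 6) and 54.6 ± 14.5 CPM in non-targeting cells (SD, n = 4), a log2 fold change of 0.95 ± 0.16 (SE; adjusted p = 0.0015, edgeR). At least 1 PI3 UMI was found in 296 of 836 JUN cells and in 188 of 700 non-targeting cells. Over each whole group the richest cell held 4.17% and 3.49% of the UMIs. Within JUN sgRNAs 1 to 6 the richest cell held 5.99, 4.62, 23.0, 15.8, 17.0 and 11.4% of the PI3 UMIs of that sgRNA. Fitted singly, PI3 was called higher for sgRNA 3 (log2 fold change 1.38) and sgRNA 4 (1.25). Without sgRNA 5 PI3 remained the 1 gene called. The call did not hold with DESeq2 (log2 fold change 0.93, adjusted p = 0.81) or under a stricter sgRNA rule (0.88, adjusted p = 0.34). Nor did it hold under a looser sgRNA rule (0.72, adjusted p = 0.088), at most 10% mitochondrial UMIs (0.75, adjusted p = 0.66) or in G1-scored cells (1.00, adjusted p = 0.059), and it was lost without non-targeting sgRNA 1 (adjusted p = 0.066) or 2 (adjusted p = 0.079). In all, PI3 was called in 11 of 18 alternatives.

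**Figure D3:**
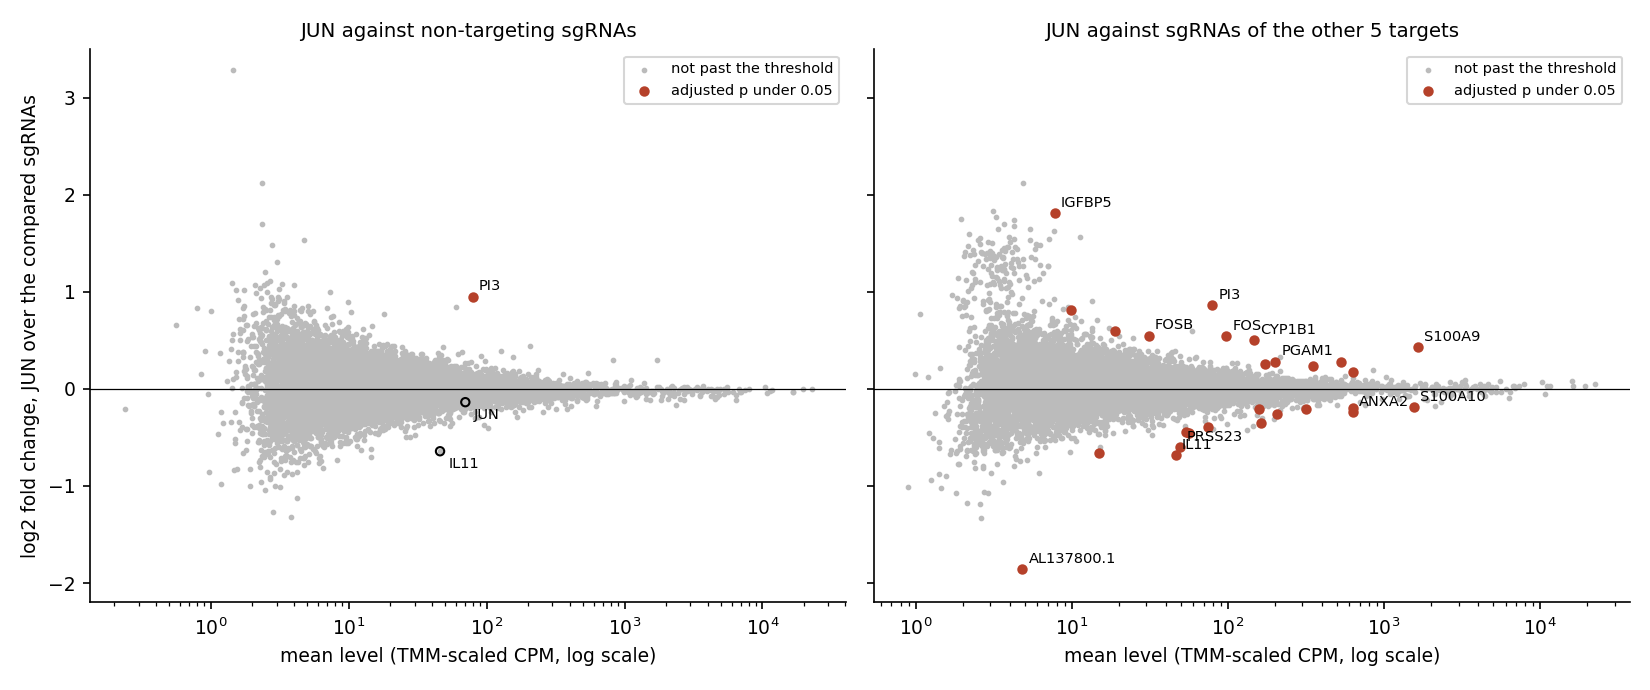
Each point is 1 of 11570 genes, with its mean level in CPM on a log x axis and its log2 fold change on the y axis, for JUN against non-targeting cells and for JUN cells against the other 5 targets. PI3 is the only gene past the threshold in the first panel, and 27 genes are past it in the second.

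No further gene passed, and those nearest the threshold are given by their values. IL11, a cytokine of the IL-6 family, stood at 39.4, 29.4, 32.3, 32.1, 50.4 and 33.7 CPM in JUN sgRNAs 1 to 6, against 50.5, 55.4, 51.8 and 65.0 CPM in the controls. Every JUN sgRNA was below every control, although JUN sgRNA 5 and non-targeting sgRNA 1 differed by less than 1 CPM. The mean was 36.2 ± 7.70 CPM in JUN cells (SD, n = 6) and 55.7 ± 6.58 CPM in non-targeting cells (SD, n = 4), with a log2 fold change of -0.64 ± 0.15 (SE; adjusted p = 0.18, edgeR). When the JUN and non-targeting sgRNAs were fitted without the other targets, IL11 passed (adjusted p = 0.0036), beside PI3, LCN2 (0.019) and S100A9 (0.019). In all, IL11 was called in 2 of 18 alternatives, as were LCN2 and S100A9. With 1 sgRNA left out the adjusted p of IL11 lay between 0.062 and 0.57 (edgeR).

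Other genes of secretion and of the cell surface showed values as follows. LCN2, which encodes the iron-carrier binding protein lipocalin 2, stood between 810 and 1128 CPM (median 904) in JUN sgRNAs, against 729, 727, 842 and 667 CPM in the controls (log2 fold change 0.29, adjusted p = 0.54). Mean LCN2 was 922 CPM in JUN cells and 546 to 1062 CPM in the other targets, with MYC and PGAM1 cells above JUN cells. SAA1, an acute phase protein, stood between 45.5 and 127 CPM (median 65.3) in JUN sgRNAs, against 24.8, 26.2, 25.6 and 116 CPM in the controls. Non-targeting sgRNA 4 decided that comparison: the log2 fold change of SAA1 was 0.85 with it (adjusted p = 0.48) and 1.38 without it (adjusted p = 3.2e-05). Mean SAA1 was 71.7 CPM in JUN cells and 29.9 to 78.5 CPM in the other targets, with only MYC cells above JUN cells. S100A9, a calcium-binding protein of calprotectin, stood between 1423 and 2181 CPM (median 1987) in JUN sgRNAs, against 1489, 1486, 1652 and 1588 CPM in the controls. All JUN sgRNAs but sgRNA 6 were above every control (log2 fold change 0.30, adjusted p = 1.0).

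**Figure D4:**
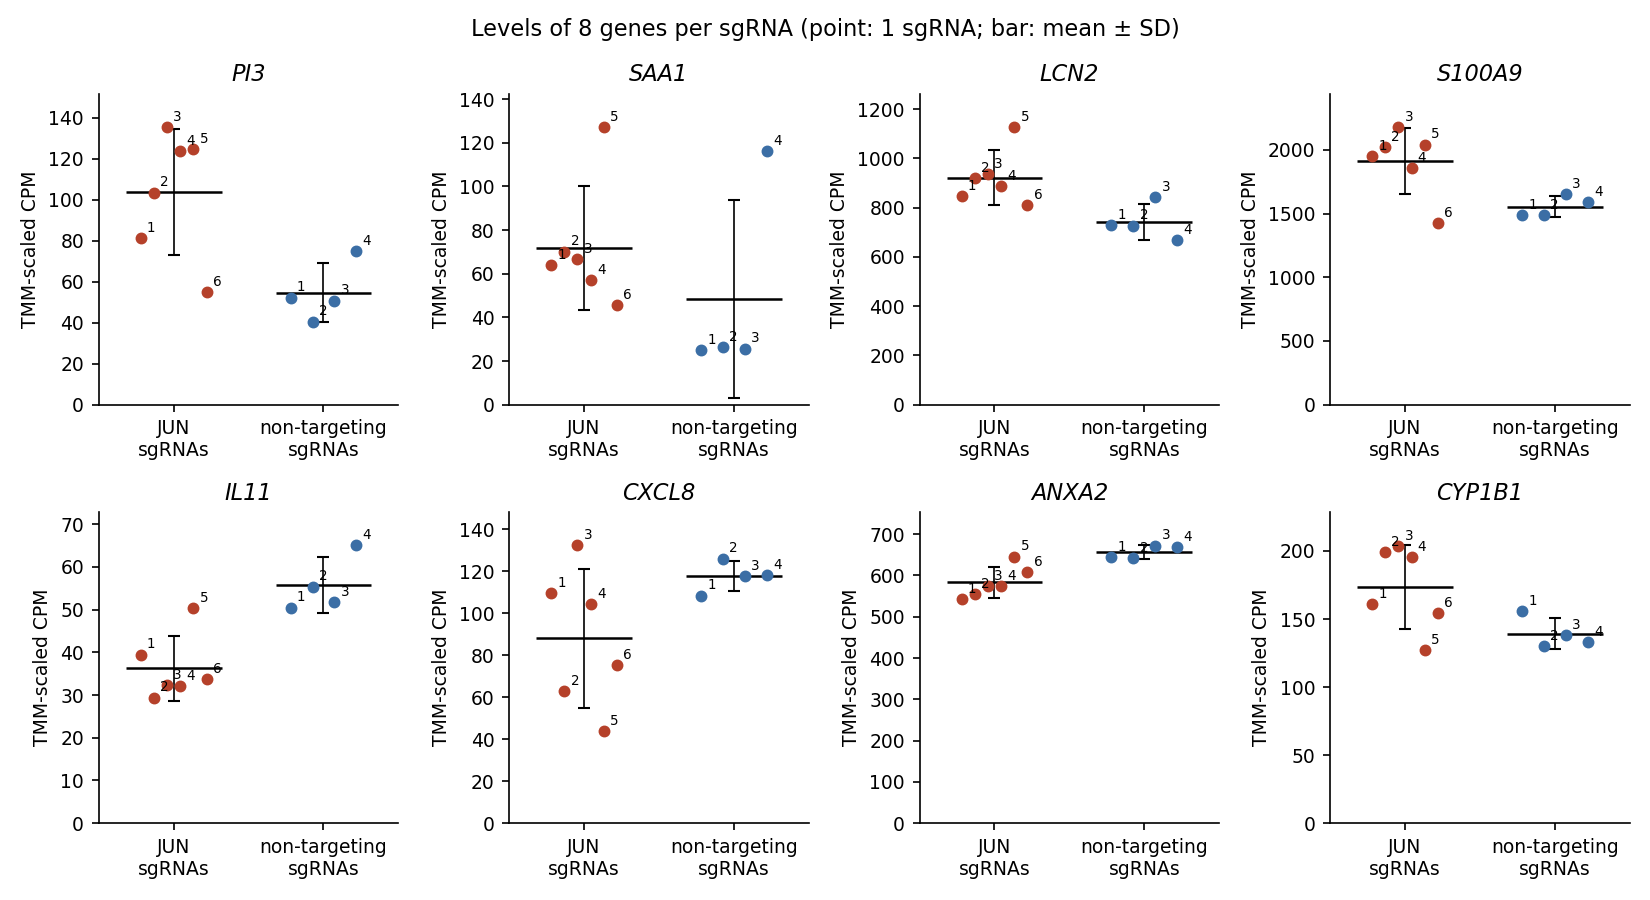
Levels of 8 genes in CPM (y axis) per sgRNA, JUN sgRNAs left of non-targeting sgRNAs, with points numbered by sgRNA and bars at mean ± SD. PI3 averages 104 CPM in JUN cells and 54.6 CPM in non-targeting cells, the IL11 points do not overlap, and SAA1 of non-targeting sgRNA 4 (116 CPM) lies far from the other 3 controls.

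The genes of this and the next paragraph, like IL11 and LCN2 above, were chosen by small p. The choice also required all JUN sgRNAs to lie on 1 side of the control mean, so that agreement was set by the choice. Several had lower values in JUN sgRNAs without passing. G3BP2, a protein of stress granules, stood between 68.6 and 81.8 CPM in JUN sgRNAs, against 89.4, 90.5, 98.1 and 102 CPM in the controls (log2 fold change -0.29, adjusted p = 0.45). MARCH9, a membrane ubiquitin ligase, ranged from 6.63 to 12.9 CPM in JUN sgRNAs, against 17.8, 15.3, 16.1 and 25.6 CPM in the controls (-0.70, adjusted p = 0.27). Both were among the 56 genes whose groups did not overlap downwards. For both, the controls had the highest mean of all groups, 95.1 CPM for G3BP2 and 18.7 CPM for MARCH9. JUN cells had 76.1 and 10.5 CPM, inside the ranges of the other targets (72.6 to 89.3 and 10.5 to 16.6 CPM). ANXA2, which encodes a calcium-dependent membrane-binding annexin, stood between 543 and 646 CPM (median 574) in JUN sgRNAs, against 645, 641, 672 and 669 CPM in the controls, and only JUN sgRNA 5 reached the controls (-0.18 ± 0.05, adjusted p = 0.56). LGALS3, the lectin galectin 3, stood between 277 and 334 CPM in JUN sgRNAs, against 324, 338, 319 and 382 CPM in the controls, and again sgRNA 5 was the highest (-0.21, adjusted p = 0.56).

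On the other side, IFT22, a component of the intraflagellar transport of cilia, ranged from 65.7 to 73.5 CPM in JUN sgRNAs, against 54.4, 49.9, 50.3 and 64.1 CPM in the controls, with no overlap (log2 fold change 0.36, adjusted p = 0.27). KIF18A, a kinesin of mitotic chromosome alignment, ranged from 15.0 to 31.8 CPM in JUN sgRNAs, against 11.5, 12.4, 18.1 and 7.88 CPM in the controls, where only non-targeting sgRNA 3 reached the JUN range (0.77, adjusted p = 0.23). CFAP20, ARHGEF1 and PFKL, a subunit of phosphofructokinase, were higher in every JUN sgRNA than in every control, with log2 fold changes of 0.35, 0.44 and 0.39 that did not pass. SSBP4 (0.31), SDCBP2-AS1 (0.46) and, downwards, VOPP1 (-0.24) overlapped and did not pass. For CFAP20 and SSBP4 the controls had the lowest mean of all groups, 41.5 and 46.4 CPM. JUN cells had 51.5 and 57.4 CPM, inside the ranges of the other targets (46.7 to 62.8 and 52.3 to 64.0 CPM). The means of IFT22, KIF18A, ARHGEF1, PFKL and SDCBP2-AS1 were highest in JUN cells.

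Genes listed as targets of AP-1 were not called either, with the low-count filter in place. Of 40 such genes 28 could be tested, none passed, and the median log2 fold change was -0.07, beside 0.00 over all genes; 20 values were below 0 and 8 above. At an unadjusted p under 0.05, 5 of the 28 had lower values and none higher, beside 252 lower (2.18%) and 284 higher (2.45%) of all 11570 genes. Among them were SPRR3 (a cornified envelope protein), MMP9 (gelatinase B), CXCL8 (interleukin 8) and INHBA (the activin A subunit). Genes of 1 list can vary together, so the 5 are not separate observations. Against cells with sgRNAs against the other 5 genes none of the 28 was called (median -0.08, beside 0.02 over all genes). Mean SPRR3 was 2.12 CPM in JUN cells and 1.52 to 6.79 CPM in those groups. For MMP9 the means were 2.92 and 1.84 to 5.46 CPM. They were 88.1 and 91.0 to 185 CPM for CXCL8, and 40.1 and 39.2 to 55.2 CPM for INHBA. CXCL8 stood between 43.7 and 132 CPM (median 89.9) in JUN sgRNAs, against 108, 126, 118 and 118 CPM in the controls. The JUN sgRNAs were spread on both sides of the controls, with sgRNA 5 lowest and sgRNA 3 highest (log2 fold change -0.40, adjusted p = 1.0). Without the filter on low counts CXCL8 was called lower (-0.42, adjusted p = 0.00055), the 1 of 18 alternatives in which it was. INHBA ranged from 27.99 to 47.2 CPM in JUN sgRNAs, against 53.1, 58.4, 48.8 and 43.4 CPM in the controls (-0.32). SPRR3 ranged from 1.03 to 3.12 CPM in JUN sgRNAs, against 4.97, 3.96, 7.04 and 5.91 CPM in the controls, without overlap (-1.32, adjusted p = 0.81). It rested on 22 UMIs in 17 JUN cells and 47 UMIs in 24 non-targeting cells, and 1 JUN cell held 22.7% of the JUN UMIs. CCND1, the cyclin D1 gene and a well-known target, stood between 341 and 403 CPM in JUN sgRNAs, against 361, 359, 365 and 396 CPM in the controls (0.01). The promoter windows of 23 of the 28 tested target genes were in the RefSeq table, and 8 of them held TGANTCA (34.8%, beside 6.57% of all windows). That share follows from which genes the list holds and is no result about JUN cells.

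The pathways up and down of c-Jun gave the same count. None of 19 tested JNK pathway genes was called (median log2 fold change -0.01). Its only member under an unadjusted p of 0.05 was GADD45A, a stress-induced activator of the upstream kinases, at 47.6 CPM in JUN cells and 58.7 CPM in non-targeting cells (-0.29, adjusted p = 1.0). Of 17 genes of c-Jun turnover and cofactors none was called (median -0.04). FBXW7, the substrate receptor of a ubiquitin ligase that marks c-Jun for degradation, stood at 10.7 CPM in JUN cells and 7.40 CPM in non-targeting cells (0.60, adjusted p = 1.0). None of 22 genes of EGFR-MAPK feedback was called (median 0.05), and EGFR itself ranged from 361 to 424 CPM in JUN sgRNAs, against 413, 417, 474 and 374 CPM in the controls. None of 15 immediate early genes outside AP-1 (median 0.06) and none of 20 YAP and TEAD targets (median 0.03) was called. YAP and TEAD targets are often bound by AP-1 together with TEAD proteins. F3, the tissue factor gene among them, stood at 40.5 CPM in JUN cells and 50.6 CPM in non-targeting cells (-0.33, adjusted p = 1.0).

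Lists of cell state and stress likewise held no gene called. Their median log2 fold changes were -0.04 for 16 epithelial genes, -0.08 for 8 mesenchymal genes, -0.01 for 19 p53 and arrest genes and -0.07 for 17 regulators of apoptosis. They were 0.02 for 20 NF-kB targets, -0.06 for 22 interferon-induced genes, -0.00 for 26 ATF4 and stress response targets, -0.02 for 12 heat shock genes and 0.04 for 17 NRF2 targets. Hypoxia genes (11, -0.10), metallothioneins (5, 0.04), mitochondrially encoded genes (13, -0.00) and lung markers (5, 0.02) had none called. The 15 tested S100 and cornified envelope genes had a median of -0.08 with members on both sides: at an unadjusted p under 0.05, S100A9 and KLK7 had higher values and S100A6, S100A10, KLK5 and SPRR3 lower ones. Over all 11570 genes, 2.45% had higher and 2.18% lower values at that p.

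Among lists with 5 or more tested genes, the mitotic genes had the median farthest from 0. Of 52 tested G2/M genes 49 had a log2 fold change above 0 and none was called; the median was 0.19, beside 0.00 over all genes, and 15 had an unadjusted p under 0.05, all with higher values. Over all 11570 genes, 51.1% were above 0 and 284 (2.45%) had higher values at that p. Genes of the same phase can vary together, so the 49 and the 15 are not counts of separate observations. Against the other 5 targets the median of the G2/M genes was 0.12, beside 0.02 over all genes, and none was called. CCNB1, the cyclin of mitotic entry, stood between 107 and 192 CPM (median 143) in JUN sgRNAs, against 106, 121, 94.0 and 110.4 CPM in the controls (log2 fold change 0.39 ± 0.09, adjusted p = 0.18). CENPF, a kinetochore protein, stood between 142 and 342 CPM (median 233) in JUN sgRNAs, against 170, 188, 136 and 196 CPM in the controls (0.44 ± 0.12, adjusted p = 0.45). For both, sgRNA 6 was the lowest of the JUN sgRNAs and lay within the controls. CCNB1 averaged 147 CPM in JUN cells, 108 CPM in the controls and 105 to 131 CPM in the other targets. CENPF averaged 240 CPM in JUN cells, 173 CPM in the controls and 145 to 227 CPM in the other targets. Summed over the list, the level was 3948, 3503, 3863, 4194, 4510 and 2899 CPM in JUN sgRNAs 1 to 6, against 3342, 3659, 2971 and 3623 CPM in the controls, and the groups overlapped. Without JUN sgRNA 6, CCNB1 and CENPF were called higher beside PI3.

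The share of cells scored as G2/M did not follow those sums in every sgRNA. It was 32.7, 29.6, 23.5, 34.5, 35.7 and 25% in JUN sgRNAs 1 to 6, against 30.3, 31.7, 24.5 and 35.1% in the controls. The share of G1-scored cells was 56.9 ± 5.65% in JUN sgRNAs (SD, n = 6) and 58.1 ± 3.83% in the controls (SD, n = 4; exact permutation p = 0.714, two-sided). The 41 tested G1/S genes had a median log2 fold change of 0.04, with none called. Phase scores rest on the same G1/S and G2/M genes, and whether counted cells per phase or RNA per cell differed was not tested.

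**Figure D5:**
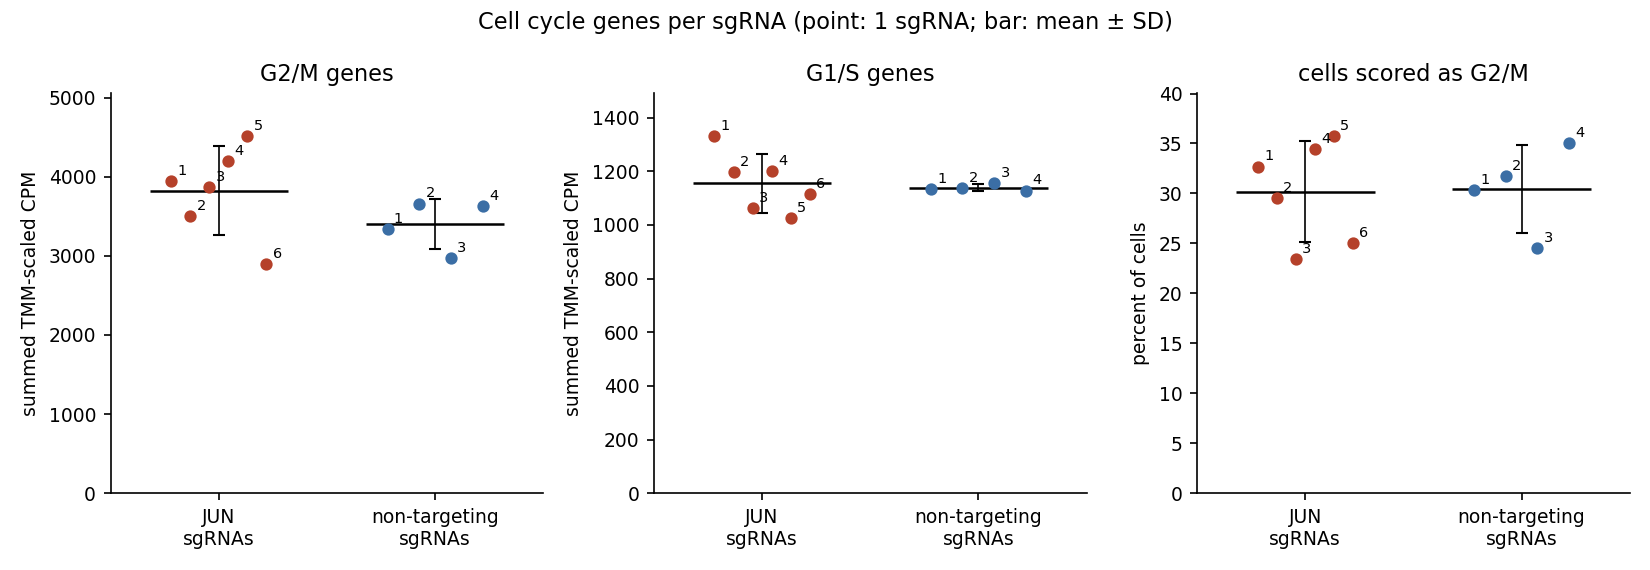
Summed CPM of the 52 G2/M genes, summed CPM of the 41 G1/S genes and percent of cells scored G2/M (y axes) per sgRNA, JUN sgRNAs left of non-targeting sgRNAs, with points numbered by sgRNA and bars at mean ± SD. JUN sgRNA 5 has the highest G2/M sum (4510 CPM) and JUN sgRNA 6 the lowest (2899 CPM).

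A further comparison asked whether JUN cells also differed from cells with sgRNAs against the other 5 genes. It uses the same JUN sgRNAs as the comparison with the controls, so these comparisons are not independent. In the same fit, 27 of 11570 genes (0.233%) passed between the JUN group and the mean of the 5 other target groups, 13 higher (0.112%) and 14 lower (0.121%) in JUN cells. Without JUN sgRNA 5 there were 28. At an unadjusted p under 0.05 the test marked 889 genes (7.68%). The contrast moves with each other target's own level, so means by target are given for most of the genes described. The genes named from this comparison were chosen after their values were seen.

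Among the 13 genes higher in JUN cells, CYP1B1, a cytochrome P450 of xenobiotic and steroid metabolism, had a mean of 174 CPM in JUN cells, against 97.4 in ATF4, 135 in CTCF, 114 in CTNNB1, 153 in MYC and 128 CPM in PGAM1 cells. JUN cells were above each of the 5, with a log2 fold change of 0.50 ± 0.07 (SE; adjusted p = 7.4e-06, edgeR). Against the non-targeting controls CYP1B1 ranged from 127 to 204 CPM (median 178) in JUN sgRNAs, against 156, 130.1, 138 and 133 CPM, with JUN sgRNA 5 the lowest of all (0.32, adjusted p = 0.45). The CYP1B1 call against the other targets held in all 22 alternatives tried. PI3 had 104 CPM in JUN cells, against 35.3 in ATF4, 62.7 in CTCF, 57.8 in CTNNB1, 69.6 in MYC and 59.8 CPM in PGAM1 cells (0.86 ± 0.13, adjusted p = 1.6e-05). Set against each target alone, PI3 and CYP1B1 were called higher against ATF4, CTCF, CTNNB1 and PGAM1 and not against MYC, whose 2 tested sgRNAs had few cells.

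S100A9 rose as well, with 1913 CPM in JUN cells, against 1131 in ATF4, 1236 in CTCF, 1456 in CTNNB1, 2045 in MYC and 1436 CPM in PGAM1 cells (log2 fold change 0.43, adjusted p = 0.0018), a call lost without ATF4 cells (0.35, adjusted p = 0.061) and with DESeq2 (0.41, adjusted p = 0.15). IGFBP5, which binds insulin-like growth factors, had 12.2 CPM in JUN cells, against 2.61 to 4.71 CPM in the 5 other targets (1.81 ± 0.31, adjusted p = 0.00034). The non-targeting controls of IGFBP5 ranged from 1.83 to 19.3 CPM, beside 7.54 to 23.9 CPM in JUN sgRNAs, and 1 cell held 20.4% of its UMIs in JUN cells and 33.8% in non-targeting cells. The aldo-keto reductases AKR1C1 and AKR1B10, both NRF2 targets that reduce carbonyls, rose by 0.28 and 0.23 on the log2 scale (adjusted p = 0.0081 each). Both calls were lost without ATF4 cells (0.17 each), without PGAM1 cells (0.16 and 0.07) and without JUN sgRNA 1 (0.23 and 0.21) or 2 (0.25 and 0.21). AKR1C1 had 574 CPM in JUN cells, against 354 in ATF4, 641 in CTCF, 487 in CTNNB1, 620.5 in MYC and 339 CPM in PGAM1 cells, so that JUN cells lay between the other targets.

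The remaining genes called higher were FOS, FOSB, PGAM1, GABBR2, CAMP, CALB2 and S100P, and the calls of the last 4 moved with ATF4 cells. Against the non-targeting controls none of those 4 was called. Means in JUN and non-targeting cells were 12.1 and 11.3 CPM for GABBR2 and 23.6 and 20.5 CPM for CAMP. They were 182 and 166 CPM for CALB2 and 676 and 693 CPM for S100P. CAMP, the gene of the antimicrobial peptide cathelicidin, had 23.6 CPM in JUN cells, against 4.12 in ATF4, 16.8 in CTCF, 15.4 in CTNNB1, 23.8 in MYC and 18.9 CPM in PGAM1 cells. The calcium-binding protein S100P had 676 CPM in JUN cells, against 433 in ATF4, 709 in CTCF, 631 in CTNNB1, 640.4 in MYC and 580.4 CPM in PGAM1 cells. Set against each target alone, CAMP, S100P and GABBR2, a subunit of the GABA-B receptor, were called against ATF4 cells alone, and CALB2 (calretinin) against ATF4 and PGAM1 cells. Without ATF4 cells the log2 fold change was 0.18 for CAMP (adjusted p = 0.84), 0.06 for S100P (adjusted p = 0.79) and 0.19 for CALB2 (adjusted p = 0.41). Over the alternatives tried, the call held in 7 of 21 for CAMP, 7 of 22 for S100P, 9 of 22 for CALB2 and 15 of 21 for GABBR2. The CAMP call was also lost without JUN sgRNA 5 (0.58, adjusted p = 0.095).

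FOS and FOSB were the AP-1 subunits called in that comparison, and PGAM1 cells decided both calls. FOS had 112 CPM in JUN cells, against 87.7 in ATF4, 98.0 in CTCF, 86.5 in CTNNB1, 116 in MYC and 30.0 CPM in PGAM1 cells (log2 fold change 0.55 ± 0.08, adjusted p = 4.0e-05). Without PGAM1 cells the FOS difference was 0.20 (adjusted p = 0.48). FOSB had 35.0 CPM in JUN cells, against 29.2 in ATF4, 33.0 in CTCF, 30.2 in CTNNB1, 24.9 in MYC and 11.1 CPM in PGAM1 cells (0.55 ± 0.12, adjusted p = 0.0089), and 0.28 (adjusted p = 0.52) without PGAM1 cells. The FOSB call was also lost without JUN sgRNA 2 (0.50, adjusted p = 0.13) or 4 (0.50, adjusted p = 0.092). The PGAM1 gene, the target of its own sgRNAs, was called higher in JUN cells (0.28, adjusted p = 0.00092), and its difference was -0.06 without PGAM1 cells.

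Among the 14 genes lower in JUN cells, IL11 had 36.2 CPM in JUN cells, against 73.7 in ATF4, 45.05 in CTCF, 55.9 in CTNNB1, 51.9 in MYC and 49.2 CPM in PGAM1 cells. JUN cells had the lowest mean of all groups, with a log2 fold change of -0.68 ± 0.13 (SE; adjusted p = 0.0018, edgeR). Without ATF4 cells it was -0.59 and without JUN sgRNA 2 it was -0.61 (adjusted p = 0.053 each), so that the call was lost in both. Over all alternatives the call held in 19 of 22. Set against each target alone, IL11 was called lower against ATF4 (-1.05) and CTNNB1 (-0.64, adjusted p = 0.0062), and not against CTCF (-0.50, adjusted p = 0.078), MYC (-0.72, adjusted p = 0.53) or PGAM1 (-0.49, adjusted p = 0.31). The IL11 promoter window printed above holds both motif forms.

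ANXA2 and its binding partner S100A10 (p11), which together form a tetramer at the plasma membrane, were both lower in JUN cells. ANXA2 had 584 CPM in JUN cells, against 736 in ATF4, 645 in CTCF, 681 in CTNNB1, 777 in MYC and 586 CPM in PGAM1 cells (log2 fold change -0.24 ± 0.04, adjusted p = 0.00029). S100A10 had 1472 CPM in JUN cells, against 1608 in ATF4, 1633 in CTCF, 1586 in CTNNB1, 1987 in MYC and 1603 CPM in PGAM1 cells (-0.18 ± 0.03, adjusted p = 0.0016). JUN cells were the lowest group for both, level with PGAM1 cells for ANXA2. The S100A10 call was lost without MYC cells (-0.13, adjusted p = 0.085). Against the controls S100A10 stood between 1316 and 1625 CPM in JUN sgRNAs, against 1575, 1555, 1601 and 1667 CPM, with JUN sgRNA 6 inside the controls (-0.12, adjusted p = 1.0).

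Several other genes called lower encode secreted or surface proteins. PRSS23, a serine protease, fell by 0.60 on the log2 scale (adjusted p = 0.0033), IGFBP6 by 0.35 (0.0022), the kallikrein protease KLK5 by 0.45 (0.010), the growth factor midkine (MDK) by 0.19 (0.011) and the WNT antagonist SFRP1 by 0.45 (0.036). LGALS3 fell by 0.21 (adjusted p = 0.017). Without JUN sgRNA 2 the calls of PRSS23 (-0.57, adjusted p = 0.056), IGFBP6 (-0.29, 0.11), KLK5 (-0.40, 0.15), MDK (-0.19, 0.087), SFRP1 (-0.47, 0.11) and LGALS3 (-0.21, 0.11) were lost. Without JUN sgRNA 4 those of KLK5, MDK, SFRP1 and LGALS3 were lost (-0.44, -0.19, -0.36 and -0.19), and without JUN sgRNA 5 those of MDK (-0.17) and SFRP1 (-0.44). The tetraspanin CD151, ANXA3, C19orf33 and AL137800.1 were also called lower, in 12, 14 and 8 of 22 and 17 of 20 alternatives. AL137800.1 had 1.82 CPM in JUN cells, against 56.2 CPM in MYC cells and 3.11 to 4.17 CPM in the other 4 targets, and without MYC cells its call was lost (-1.02, adjusted p = 0.53), as were those of CD151 (-0.07) and C19orf33 (-0.16). PRSS23 ranged from 34.5 to 45.8 CPM in JUN sgRNAs, against 44.2, 42.0, 48.3 and 96.6 CPM in the controls, where non-targeting sgRNA 4 lay apart from the other 3. Of the 27 genes, 18 had a promoter window in the RefSeq table: ANXA2 and IL11 held TGANTCA, and PRSS23 and IL11 held TGACNTCA, 11.1% of the 18 for each motif, beside 6.57% and 6.87% of all windows.

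Single JUN sgRNAs against the controls gave 7 calls in all, each with the lone sgRNA assumed to vary like the others. sgRNAs 1, 2 and 6 had none of 11570. sgRNA 4 had 1 (0.00864%), PI3, and sgRNA 3 had 2 (0.0173%), PI3 and CCNB1, which stood at 192 CPM in that sgRNA, against a control mean of 108 CPM (log2 fold change 0.84, adjusted p = 0.011). sgRNA 5 had 4 (0.0346%), of which RPL32 and BRK1 lie in the part of chromosome 3 described above. RPL32, a protein of the large ribosomal subunit, stood at 2976 CPM in sgRNA 5, against a control mean of 4672 CPM (-0.65, adjusted p = 9.0e-07), and BRK1, a subunit of the WAVE actin regulator, at 172 CPM, against 294 CPM (-0.76, adjusted p = 0.0055). CENPF stood at 342 CPM, against 173 CPM, and GADD45B, a stress-induced activator of the JNK cascade, at 55.7 CPM, against 18.2 CPM. The GADD45B value rested on 42 UMIs in 13 cells of sgRNA 5, of which 1 cell held 27 (64.3%). For CENPF the richest cell of sgRNA 5 held 49 of 258 UMIs (19.0%). No gene was called in all 6 sgRNAs, and PI3 was the 1 gene called in more than 1.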

How the data were processed

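The authors deposited raw counts: whole-number UMI counts per gene and per sgRNA for 10847 cell barcodes (36601 genes, 36 sgRNAs; no barcode occurred more than once), produced by Cell Ranger 6.1.2, as the file headers say, on hg38 per the submitters' processing notes. For filtering and doublet removal before deposit, settings were not given in the sources used here. Of the barcodes, the filter kept 10142 cells, and 5556 (54.8%) were assigned to 1 sgRNA. No doublet caller was run: assignment to 1 sgRNA was the guard, and 23 assigned JUN cells held at least 5 UMIs of a sgRNA of another target. Among 1245 cells with at least 5 UMIs of a JUN sgRNA, 24 (1.93%) held 2 or more such sgRNAs.

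Counts were summed per sgRNA, and 34 sgRNAs with at least 20 cells (5530 cells, 7 groups) entered 1 fit with edgeR 4.0.16 (R 4.3.3): TMM scaling, the tool's filter on low counts (11570 genes), the quasi-likelihood test and Benjamini-Hochberg adjustment, threshold 0.05. The biological coefficient of variation was 4.64%. DESeq2 1.42.0 was an alternative, and scanpy 1.11.5 scored cell cycle phase. Permutation tests used SciPy 1.17.1. The fitting step was tested on simulated data. For the share of cells with a JUN UMI, cells were thinned to 5000 UMIs. Mean levels are given with SD over sgRNAs and fold changes with SE; intervals are at 95%.

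Members, lists and tests were chosen with earlier results of these data known. Named were JUN and the tested AP-1 subunits, genes past the threshold, the 8 higher and 8 lower genes of smallest p with at least 10 CPM whose JUN sgRNAs all lay on 1 side of the control mean, and for each list and sgRNA those of smallest p, with those of highest level for 5 lists. Promoter windows came from RefSeq (GRCh38.p14). Of the gene identifiers, 36366 matched the reference gene table. The sgRNA sequences were not analysed here. Some genes that the rule names are not reported here.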

Additional observations from a re-analysis of the deposited data

Results flagged for a closer look

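Single sgRNAs that lay far from the others of their group, by Dixon's criterion at the 5% level, were found in 25 of 266 groups of values. Chance alone gives about 5% where values were not chosen for their spread. Some of these genes were named because a single JUN sgRNA differed from the controls, RPL32, BRK1 and GADD45B for sgRNA 5 among them. The flagged count can therefore not be set against that share. JUN sgRNA 5 accounted for 9 of the 25, from 56 cells. Its cells had the lowest median share of UMIs from the first 90 Mb of chromosome 3 (26.3 per 1000, the nearest JUN sgRNA 32.1) and the lowest median mitochondrial share (9.59%, nearest 10.9%). It was lowest for RPL32 (2976 CPM, nearest 4412) and BRK1 (172 CPM, nearest 288). It was highest for the metallothionein MT2A (937 CPM, nearest 650.4), SAA1 (127 CPM, nearest 70.1), KLK5 (72.9 CPM, nearest 48.0), GADD45B (55.7 CPM, nearest 29.1) and LGALS3 (334 CPM, nearest 295).

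Among the other JUN sgRNAs, sgRNA 4 was highest for JUND (152 CPM, nearest 127) and sgRNA 2 was highest for ARHGEF1 (27.0 CPM, nearest 23.7) and lowest for the chaperone HSPA8 (308 CPM, nearest 343). sgRNA 6 was lowest for SSBP4 (49.2 CPM, nearest 57.1) and highest for RAC1 (912 CPM, nearest 825).

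Among the controls, non-targeting sgRNA 4, which had the fewest cells of the 4, was highest for SAA1 (116 CPM, nearest 26.2), PRSS23 (96.6 CPM, nearest 48.3), the interferon-induced IFI27 (295 CPM, nearest 183), HSP90AA1 (3266 CPM, nearest 2692), CCND1 (396 CPM, nearest 365) and MAFK (8.87 CPM, nearest 5.03). It was lowest for GPSM2 (17.7 CPM, nearest 24.7), and its median share from the first part of chromosome 3 was the highest of the 4 (32.9 per 1000, nearest 32.5). Non-targeting sgRNA 1 was highest for IER2 (124 CPM, nearest 106). Non-targeting sgRNA 2 was highest for DET1 (7.42 CPM, nearest 5.23) and lowest for ERRFI1 (46.5 CPM, nearest 60.1).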

How the results depend on the processing

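Against the controls, the count of called genes (1 in all) was 0 with DESeq2, under the stricter and the looser sgRNA rule, at most 10% mitochondrial UMIs and in G1-scored cells, 15 (11 higher, 4 lower) without a filter on low counts, and 4 with the JUN and non-targeting sgRNAs fitted alone. Leaving out 1 sgRNA gave 0 to 3: 0 without non-targeting sgRNA 1 or 2, 2 without non-targeting sgRNA 4 (SAA1 added) and 3 without JUN sgRNA 6. PI3 kept its direction in all 18 alternatives and was called in 11, the log2 fold change lying between 0.72 and 1.07. Against the other targets, the 27 calls (13 higher, 14 lower) became 64 (26 higher, 38 lower) without the filter, 9 under the stricter and 57 (19 higher, 38 lower) under the looser sgRNA rule, 11 (10 higher, 1 lower) at most 10% mitochondrial UMIs, and 14 without ATF4 cells, 40 (25 higher, 15 lower) without MYC cells and 24 (6 higher, 18 lower) without PGAM1 cells. These target omissions were chosen after seeing the data. Leaving out 1 sgRNA gave 8 to 36 calls, with 8 without JUN sgRNA 2 and 14 without JUN sgRNA 4. Single JUN sgRNAs gave 7 calls, 35 without the filter and 22 at most 10% mitochondrial UMIs. The JUN transcript's log2 fold change lay between -0.22 and -0.11 when 1 sgRNA was left out and was 0.065 at most 10% mitochondrial UMIs (309 JUN cells, 246 non-targeting cells). In the comparison with other targets CD151 turned to 0.053 at most 10% mitochondrial UMIs, and the PGAM1 gene to -0.061 without PGAM1 cells. The cause was not tested, except that fewer cells entered under the stricter rule, the mitochondrial limit and G1 scoring. Over named genes, 2495 of the recomputed values kept their side of the threshold, those not called lying within the SE of the main value. A call was lost by 165 and gained by 17, and 124 uncalled values moved by more than the SE. In 2 comparisons that held a call the value changed sign. Changes of sign among uncalled values were not counted, so the 2495 include values that crossed 0. No paired analysis was possible because the sgRNA numbers only name sgRNAs and pair none across groups. Depth limits genes of low level: the 95% interval lay within 1.5-fold for 65.8% of all genes tested.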

Other observations

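The share of RNA from the part of chromosome 1 on the telomere side of JUN was computed per cell, a measure chosen after seeing the chromosome 3 values of JUN sgRNA 5. It sums 821 genes, per 1000 nuclear-gene UMIs. The percentage of cells below the 5th percentile of the control cells was 4.49, 8.70, 9.88, 9.04, 12.5 and 13.2% in JUN sgRNAs 1 to 6, against 3.33, 4.88, 5.03 and 11.7% in non-targeting sgRNAs 1 to 4. The mean was 9.64 ± 3.13% in JUN sgRNAs (SD, n = 6) and 6.23 ± 3.72% in non-targeting sgRNAs (SD, n = 4), a difference that did not pass (exact two-sided permutation p = 0.152). In the 24 sgRNAs of the other 5 targets the percentage was 2.69 ± 1.597%, from 0 to 5.56%, lower than in JUN sgRNAs (exact two-sided permutation p = 1.3e-05). That test took the 24 sgRNAs as separate units although they share 5 targets. It gave sgRNAs of 23 and of 492 cells equal weight, and its p was not adjusted. The non-targeting mean was also above that of the other targets. The median share per sgRNA was 34.95 to 35.96 per 1000 in JUN sgRNAs and 35.73 to 35.92 in non-targeting sgRNAs. It was 35.3 to 37.6 in the sgRNAs of the other targets. On the other side of JUN the percentage was 7.68 ± 1.66% in JUN sgRNAs, 6.52 ± 3.55% in the sgRNAs of the other targets and 5.63% on average in non-targeting sgRNAs (exact two-sided permutation p = 0.449 for JUN against the other targets). For the first 90 Mb of chromosome 3 the same measure was taken without a test: 8.24 to 21.9% of the cells of CTNNB1 sgRNAs lay below the control percentile, beside 57.1% for JUN sgRNA 5 and 1.23 to 11.1% for the remaining sgRNAs, and the ranges overlap. CTNNB1 lies in that part of chromosome 3.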
